A study of Mus musculus with 2 samples.

Results

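The E2F family and its dimer partners were measured in granulocyte-monocyte progenitors (GMP), marrow cells that are precursors of monocytes and neutrophils. The family was taken as the 8 genes E2f1 to E2f8 with the DP genes Tfdp1 and Tfdp2, found by symbol, and these were 10 of 21474 protein-coding genes with a row in the gene tables. The series holds a single group of 2 total RNA-seq libraries, each from a pool of 100 primary GMP cells of adult male C57BL/6J mice aged 5 to 6 weeks. No treatment or genetic change is labelled, and the labels give an RNA size range above 200 nucleotides. Both libraries name the same donor, and the labels do not say whether the pools came from separate animals, so a spread between them may be technical. There is no second cell type or condition here, so genes were compared with each other and replicate 1 with replicate 2, and with 2 libraries of 1 group no p-value was computed.

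E2F proteins bind promoters of genes needed for DNA synthesis and for progress through the cell cycle. E2F1, E2F2 and E2F3 are usually classed as activators, E2F4 and E2F5 as repressors that bind DNA together with the pocket proteins, E2F6 as a repressor that works through Polycomb proteins, and E2F7 and E2F8 as atypical repressors. E2F1 to E2F6 need a DP protein, encoded by Tfdp1 or Tfdp2, to bind DNA well, whereas E2F7 and E2F8 carry a pair of DNA-binding domains and need none. In dividing cells, cyclin D and cyclin E kinases phosphorylate the pocket proteins and free the activators, and several E2F genes are themselves known E2F targets.

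E2F binding words stood in the promoter windows of 4 family members, which are shown because the family is known to act on its own genes. The search used TTTCGCGC, TTTGGCGC, TTTCCCGC and TTTGCCGC on both strands, in RefSeq windows on GRCm38.p6 from 250 bases before to 50 bases after each annotated start, with no mismatch allowed. RefSeq windows were at hand for 8 of the 10 members, all but E2f4 and E2f5. Each line gives the gene strand from 5′ to 3′, with the words in capitals, and holds at most 30 bases that lie past the start. The E2f2 and Mcm3 lines lie wholly past the start. A word on the opposite strand appears as its reverse complement, such as GCGGGAAA for TTTCCCGC.
E2f2 (chr4:136172294-136172323, + strand): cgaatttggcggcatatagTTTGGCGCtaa
E2f3 (chr13:29986034-29986114, − strand): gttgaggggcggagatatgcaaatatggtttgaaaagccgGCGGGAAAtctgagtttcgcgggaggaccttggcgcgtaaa
E2f7 (chr10:110745201-110745288, + strand): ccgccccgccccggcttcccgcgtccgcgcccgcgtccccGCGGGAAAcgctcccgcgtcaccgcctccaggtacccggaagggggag
Tfdp1 (chr8:13338668-13338755, + strand): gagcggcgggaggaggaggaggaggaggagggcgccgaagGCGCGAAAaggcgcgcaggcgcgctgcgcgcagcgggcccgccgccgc
Mcm3 (chr1:20820266-20820295, − strand): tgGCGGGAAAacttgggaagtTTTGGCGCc
Mcm6 (chr1:128359705-128359855, − strand): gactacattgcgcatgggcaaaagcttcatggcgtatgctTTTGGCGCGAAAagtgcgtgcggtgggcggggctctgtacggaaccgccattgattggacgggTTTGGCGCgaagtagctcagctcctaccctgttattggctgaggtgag

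Mcm3 and Mcm6, which encode subunits of the replicative helicase, are shown as known E2F targets for comparison. In the Mcm6 window the first run of capitals holds TTTGGCGC on the gene strand overlapping TTTCGCGC on the opposite strand. Relative to the RefSeq start, the E2f3 word lay 11 bases upstream and the E2f7 word 198 bases upstream. The Tfdp1 word lay 43 bases upstream of one start and 96 bases upstream of another, and the E2f2 word lay 40 bases past the start. At least one word stood in the windows of 4 of the 8 members and of 12 of the 24 G1/S targets with a window, against 548 of 16517 protein-coding genes (3.32%). These targets were listed because they are known E2F targets, so their share is a description of the list. The windows of E2f1, E2f6, E2f8 and Tfdp2 held none of these words, which says nothing about other forms of the site or about sequence outside the window. RefSeq starts did not always match the transcript measured here. Both Tfdp1 starts with a word lay 923 and 870 bases upstream of the start of Tfdp1-201, the transcript in the tables. The E2f2 start with a word lay 120 bases upstream of that of E2f2-201. The E2f7 start lay 29 bases upstream of that of E2f7-201, and the E2f3 start with a word was that of E2f3-201. Of the windows with no word, the E2f1 start lay 466 bases downstream of the start of its main transcript, and the Tfdp2 starts lay 62401 and 62944 bases downstream of that of its main transcript.

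All 10 members were expressed at 1 TPM (a count divided by effective transcript length and scaled to a common library total) or more in both libraries, against 9782 of 21474 protein-coding genes (45.6%). Tfdp1 was the most abundant member, E2f4 and E2f8 followed, and E2f2 and E2f5 were the least abundant. The median of the members' mean levels was 13.8 TPM, and that of all protein-coding genes was 0.55 TPM. All are levels in a pool, where fewer cells expressing a gene and less RNA per cell cannot be told apart. Library totals were 40509954 expected counts in replicate 1 and 35675702 in replicate 2, so that 0 counts would allow up to 0.0741 and 0.0841 CPM, a count scaled to the library total and not divided by length (3 counts, counting error only).

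**Figure D1:**
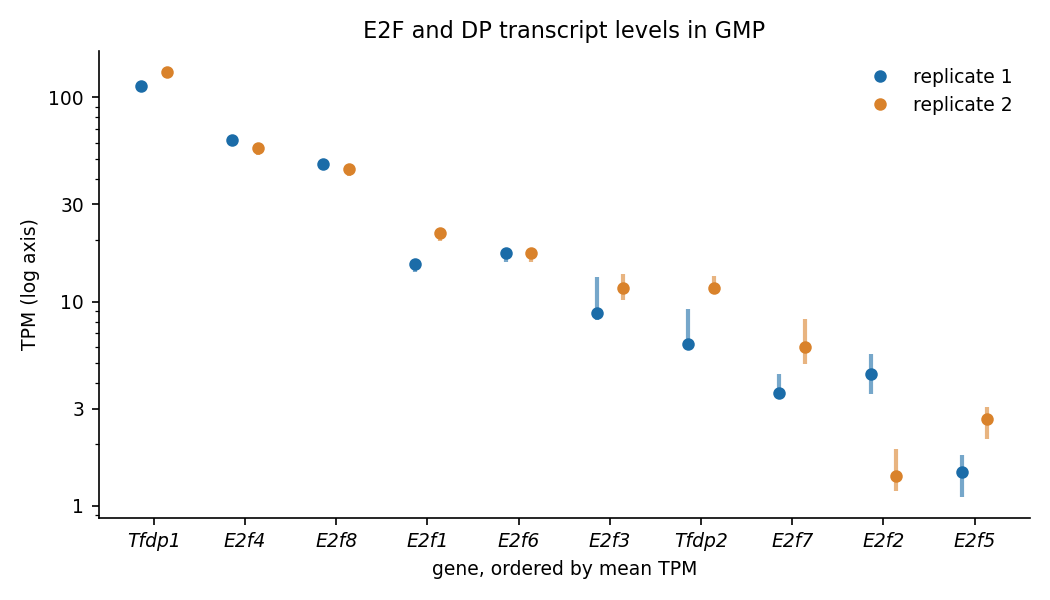
Level of each E2F and DP gene in TPM on a log axis, with genes ordered by mean; points are the 2 replicate libraries and vertical lines the deposited intervals of each library. Tfdp1, at 114 and 133 TPM, lies above the other members, and E2f5, at 1.46 and 2.66 TPM, has the lowest mean.

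Among the activators, E2f1, a driver of entry into S phase, lies on the minus strand of chromosome 2 (154559407 to 154569892, GRCm38) and had 15.3 TPM in replicate 1 and 21.7 TPM in replicate 2, from 1156 and 1467 expected counts. Its mean was 18.5 ± 4.55 TPM (SD, n = 2), which placed it above 81.2% of protein-coding genes. Replicate 2 was the higher library, and the deposited intervals, 13.9 to 15.6 TPM in replicate 1 and 19.8 to 21.9 TPM in replicate 2, did not overlap. E2f3, which encodes an activator with a long and a short protein form, is on the minus strand of chromosome 13 (29906575 to 29986063). It had 8.83 TPM in replicate 1 and 11.7 TPM in replicate 2, or 10.3 ± 2.03 TPM, and its intervals overlapped. E2f2, an activator studied in lymphocytes and red cell precursors, lies on the plus strand of chromosome 4 (136172394 to 136196057). It had 4.45 TPM in replicate 1 and 1.41 TPM in replicate 2, from 493 and 169 counts, or 2.93 ± 2.15 TPM. It was the lowest activator in both libraries, and as a ratio its replicates differed more than those of any other member.

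Among the repressors, E2f4, which encodes the main E2F of the p130 and p107 complexes, lies on the plus strand of chromosome 8 (105297663 to 105305370). It had 62.1 TPM in replicate 1 and 56.3 TPM in replicate 2, from 3342 and 2709 counts, or 59.2 ± 4.08 TPM, which placed it above 94.7% of protein-coding genes. On log2(TPM + 1), the libraries differed by less than for any activator. The deposited intervals of E2f4, 57.8 to 61.8 TPM in replicate 1 and 52.0 to 56.1 TPM in replicate 2, still did not overlap. E2f5, its closest relative, on the plus strand of chromosome 3 (14578641 to 14606309), had 1.46 TPM in replicate 1 and 2.66 TPM in replicate 2, from 68 and 111 counts. Its mean of 2.06 ± 0.849 TPM was above 55.6% of all protein-coding genes, and above 7.31% of those that averaged 1 TPM or more. E2f4 was therefore 42.5-fold above E2f5 in replicate 1 and 21.2-fold in replicate 2. The nearest protein-coding genes in level over these 2 libraries, by distance on log2(TPM + 1), were Suclg1, Uckl1 and Nars to E2f4 (0.0169, 0.0191 and 0.0210) and Slc41a3, Rab11fip1 and Ext1 to E2f5 (0.0194, 0.0280 and 0.0340). With 2 points a gene, such nearness reports a similar level and no more.

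E2f6, on the plus strand of chromosome 12 (16810963 to 16839742), encodes the member that lacks the activation and pocket-binding domains. It had 17.2 TPM in replicate 1 and 17.4 TPM in replicate 2, or 17.3 ± 0.127 TPM from 1144 and 1033 counts. By deposited TPM it had the smallest spread between libraries of all members, whereas on TMM-scaled counts and over protein-coding transcripts E2f7 had a smaller one.

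The atypical repressors E2f7 and E2f8, which can act together in one complex, stood far apart in level. E2f8, on the minus strand of chromosome 7 (48866429 to 48881596), had 47.3 TPM in replicate 1 and 44.6 TPM in replicate 2, from 4638 and 3854 counts, or 45.9 ± 1.93 TPM. By TPM it was the second most abundant E2F, 3.09-fold above E2f1 in replicate 1 and 2.05-fold in replicate 2. In CPM, not divided by length, it was the first, with 114 and 108 CPM beside 82.5 and 75.9 CPM for E2f4. E2f7, on the plus strand of chromosome 10 (110745439 to 110787384), had 3.57 TPM in replicate 1 and 5.98 TPM in replicate 2, or 4.78 ± 1.70 TPM, from 470 and 447 counts. E2f8 was 13.3-fold above E2f7 in replicate 1 and 7.45-fold in replicate 2. Over protein-coding transcripts alone, these folds were 14.1 and 12.7.

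Both DP genes were present, with Tfdp1 far above Tfdp2. Tfdp1, which encodes DP1, the usual E2F partner, is on the plus strand of chromosome 8 (13338751 to 13378448) and had 114 TPM in replicate 1 and 133 TPM in replicate 2, from 5135 and 5387 counts. Its mean of 123 ± 13.9 TPM was above 97.7% of protein-coding genes. Tfdp2, on the plus strand of chromosome 9 (96196275 to 96323646), had 6.24 TPM in replicate 1 and 11.7 TPM in replicate 2, or 8.98 ± 3.87 TPM. Both were higher in replicate 2, and for both the deposited intervals of the libraries did not overlap. The intervals of E2f1, E2f2, E2f4, E2f5 and E2f7 did not overlap either. The share of all protein-coding genes with such intervals is not given here, so this is not read as a trait of the members. Tfdp1 was 18.2-fold above Tfdp2 in replicate 1 and 11.4-fold in replicate 2 by TPM, and 5.53-fold and 4.05-fold in CPM. The summed DP level was 120 TPM in replicate 1 and 145 TPM in replicate 2, beside 109 and 111 TPM for E2F1 to E2F6, the members that need a DP partner. On the log2 scale, DP exceeded E2F1 to E2F6 by 0.26 ± 0.18 (SD, n = 2). That sign holds only per length: in CPM, the mean was −0.15. The CPM sum of DP was below that of E2F1 to E2F6 in both libraries, but in replicate 2 the sums were nearly equal.

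The summed level of the 8 E2F genes was nearly equal in the libraries: replicate 1 had 160 TPM and replicate 2 had 162 TPM. Repressors E2f4 and E2f5 held 38.1% ± 2.27 of this sum and the atypical repressors 31.5% ± 0.356, while the activators held 19.7% ± 2.62 and E2f6 10.8% ± 0.00537 (SD, n = 2). E2f4 alone held 36.8% ± 2.79, E2f8 28.5% ± 1.39 and E2f1 11.5% ± 2.75. In CPM the class order of the means changed, with 39.9% for the atypical repressors, 26.4% for the repressors and 24.4% for the activators. The order of the last pair in CPM differed by library: repressors were higher in replicate 1 and activators in replicate 2.

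Ordered by mean TPM, the members ran Tfdp1, E2f4, E2f8, E2f1, E2f6, E2f3, Tfdp2, E2f7, E2f2 and E2f5. Neighbours were apart, in both libraries and by the deposited intervals within each, for Tfdp1 over E2f4 (2.08-fold), E2f4 over E2f8 (1.29-fold), E2f8 over E2f1 (2.48-fold), E2f6 over E2f3 (1.69-fold) and Tfdp2 over E2f7 (1.88-fold). They were not apart for E2f1 and E2f6, E2f3 and Tfdp2, E2f7 and E2f2, or E2f2 and E2f5. The intervals are centred on a posterior mean TPM and not on the TPM itself, so the TPM of Tfdp1, E2f4 and E2f8 lay just above its own interval in each library.

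Of the 10 members, 1, E2f2, differed over 2-fold between the libraries on the log2(TPM + 1) scale, against 773 of 10278 protein-coding genes averaging 1 TPM or more (7.52%). The log2 ratio of replicate 1 over replicate 2 on that scale was 1.18 for E2f2, from 4.45 and 1.41 TPM, and 1.36 in CPM. After TMM scaling of the counts, its difference was 2.20 times the spread that edgeR's abundance trend gives for a gene of its level, and every other member was closer to 0 on that measure. Restricted to protein-coding transcripts, E2f2 had 3.62 TPM in replicate 1 and 1.41 TPM in replicate 2, still over 2-fold apart. The log2 ratio was 0.94 on log2(TPM + 1), where the 1 TPM added brought it under 2-fold.

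The median log2 ratio of the members was −0.30 on log2(TPM + 1), with 3 higher in replicate 1 and 7 in replicate 2. Over protein-coding genes averaging 1 TPM or more the median was −0.04, with 45.3% higher in replicate 1 and 54.6% in replicate 2. On counts scaled with TMM the members' median was −0.0992, and with DESeq2 size factors −0.0919. The ratio was −0.81 for Tfdp2, whose TMM-scaled difference was 1.69 times the trend's spread, and −0.48 for E2f1, at 1.30 times the spread (both lower in replicate 1). E2f5, at 68 and 111 counts, had a ratio of −0.57 and lay within 1 such spread. E2f7 had a ratio of −0.61 in TPM but −0.11 in CPM and −0.01 over protein-coding transcripts. Its effective length, the divisor in TPM, was 4486 bases in replicate 1 and 2854 bases in replicate 2, and its coding TPM was 3.28 and 3.30. The transcripts assigned to E2f7 also differed between the libraries and are given further on.

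**Figure D2:**
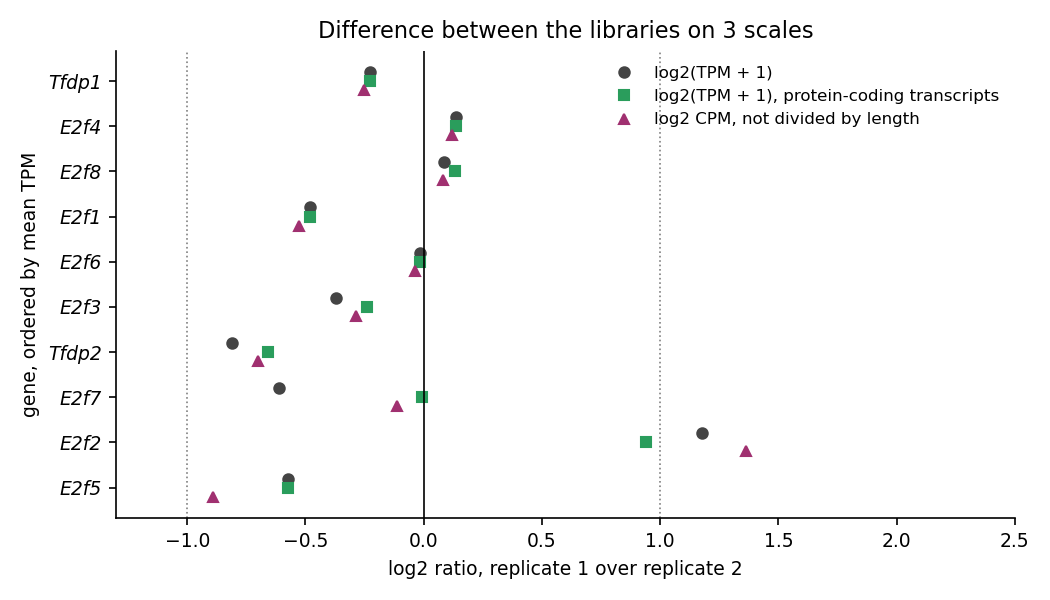
Log2 ratio of replicate 1 over replicate 2 for each member, on log2(TPM + 1), on the same over protein-coding transcripts and on log2 CPM; the line at 0 marks equal libraries and the dotted lines a 2-fold difference. E2f2 lies to the right at 1.18 on TPM, and E2f7 has −0.61 on TPM but −0.11 in CPM.

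Markers of other cells were compared between the libraries beside these ratios. All 8 progenitor markers, led by the granule genes Mpo, Elane, Prtn3 and Ctsg, were at 1 TPM or more in both libraries. The 5 later neutrophil markers summed to 86.3 TPM in replicate 1 and 5.20 TPM in replicate 2. Of these, 4 (Ngp, Camp, Retnlg and Ltf) were over 2-fold higher in replicate 1 on log2(TPM + 1). The other, Mmp8, was higher in replicate 2, with 1.07 and 2.24 TPM from 72 and 135 counts in replicates 1 and 2. Mmp8 was named after its value was seen. The 10 genes of G2 and M phase summed to 442 TPM in replicate 1 and 349 TPM in replicate 2, with 8 higher in replicate 1. Their highest members were Top2a, Mki67, Birc5 and Cdk1, the kinase of mitotic entry, which had 46.7 TPM in replicate 1 and 38.1 TPM in replicate 2. Ube2c, chosen after its value was seen, differed over 2-fold, with 36.0 TPM in replicate 1 and 11.8 TPM in replicate 2. Any part that either list has in the E2F ratios was not tested. Of 7 erythroid markers only Gata1 was at 1 TPM or more in both libraries, followed by Hba-a1, Klf1 and Epor, with Slc4a1, Alas2 and Hbb-bs at 0 counts, and their sums were 2.46 and 3.09 TPM. The 5 B lymphoid markers summed to 0.01 and 0.10 TPM with Cd79a, Pax5 and Ebf1 at 0 counts. The 4 megakaryocyte markers, Itga2b, Pf4, Gp9 and Gp1bb, summed to 8.15 and 7.82 TPM, of which Itga2b made up 8.15 and 6.00 TPM. The 4 stem cell markers, Hlf, Procr, Mecom and Ly6a, summed to 6.44 TPM in replicate 1 and 6.63 TPM in replicate 2, and Ly6a was at 0 counts.

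The transcript tables hold 40 rows for the 10 genes, and the same transcript led in both libraries for all 10. For 6 members the leading transcript held 90% or more of the gene's TPM in both libraries: E2f1-202, E2f3-201, E2f4-201, E2f5-202, E2f6-201 and Tfdp1-201. E2f4, E2f6 and Tfdp1 have 1 row each, so both their value of 100% and their shared leading transcript are fixed by construction. The share of all genes with the same leading transcript in both libraries is not given here. GENCODE M21 lists 2 further transcripts for E2f4, 6 for E2f6 and 8 for Tfdp1 with no row in these tables. E2f3 likewise has no row for E2f3-203 and E2f3-204, the coding transcripts that begin at base 29984391, 1672 bases downstream of E2f3-201. The long and short forms of E2f3 were therefore not separated by these tables.

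E2f8 reads fell mainly on 2 coding transcripts. E2f8-202, with 3531 expected counts in replicate 1 and 2664 in replicate 2, held 76.1% and 68.2% of the gene's TPM, and E2f8-201 held 21.4% and 25.9%. Their annotated starts are 555 bases apart. E2f8-203, which retains an intron, held 2.27% in replicate 1 and 5.84% in replicate 2. The order of the forms was the same in both libraries, and most E2f8 signal was on coding transcripts.

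E2f7 and Tfdp2 were divided among more transcripts, and less evenly between the libraries. Of 9 E2f7 rows, 3 had counts in replicate 1 and 6 in replicate 2. The coding E2f7-201 led with 62.2% of the TPM in replicate 1 and 32.5% in replicate 2. The 438-base non-coding E2f7-203 held 0% in replicate 1 and 23.2% in replicate 2, where it had 10.2 counts. A short transcript turns few reads into a large TPM. In counts, the non-coding share of E2f7 was 3.67% in replicate 1 and 17.9% in replicate 2. Of 16 Tfdp2 rows, 5 had counts in replicate 1 and 8 in replicate 2, and Tfdp2-201 led with 63.5% and 47.3%. Tfdp2-210 was at 11.9% in replicate 1 and 0% in replicate 2, whereas Tfdp2-215 was at 0% and 11.2%. These shares rest on 9.92 counts for Tfdp2-210 in replicate 1 and 13.6 counts for Tfdp2-215 in replicate 2. Such counts are too few to tell which minor forms each pool held. E2f2-202, a 426-base non-coding transcript, held 18.6% of the E2f2 TPM in replicate 1 from 6.49 counts and 0% in replicate 2.

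**Figure D3:**
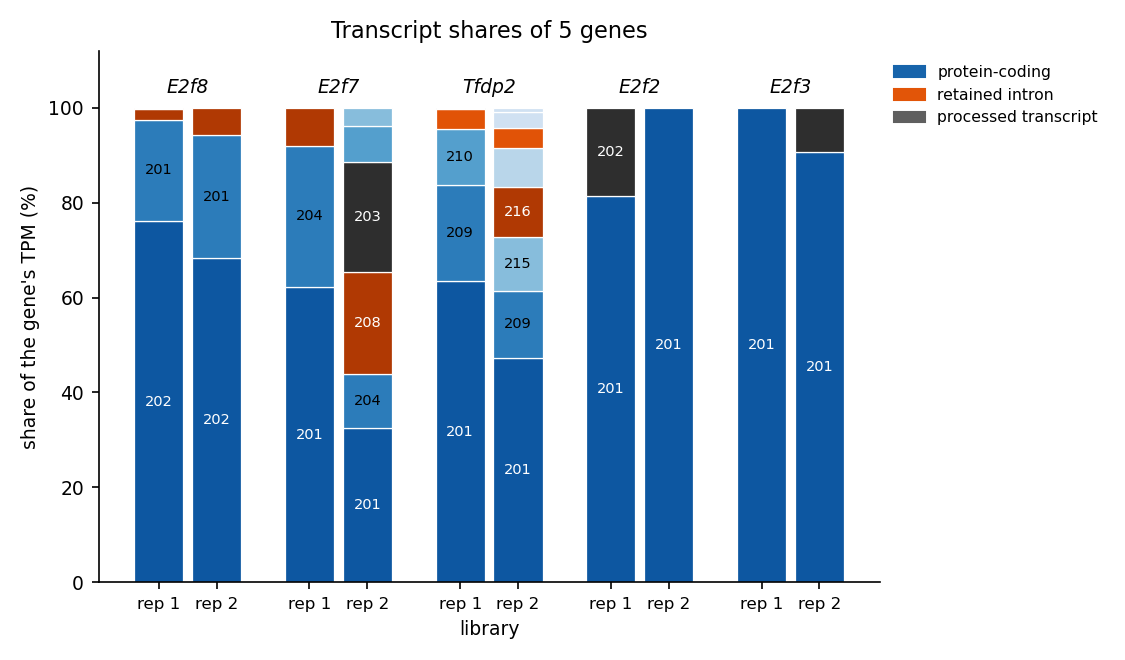
Share of the gene's TPM held by each transcript of E2f8, E2f7, Tfdp2, E2f2 and E2f3 in replicate 1 and replicate 2, in percent; blue marks protein-coding, orange retained-intron and grey processed transcripts, and numbers give the transcript's suffix. E2f7 and Tfdp2 are split among the most transcripts, and the leading E2f7 transcript held 62.2% in replicate 1 and 32.5% in replicate 2.

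All 10 members had whole-number expected counts in both libraries (within 0.005), as did 9158 of 10278 protein-coding genes averaging 1 TPM or more (89.1%). The deposited posterior SD of the count was 0 for all 10, so no read was divided between a member and another gene in these tables. Genes on the opposite strand overlap E2f3, E2f5, E2f7, E2f8 and Tfdp2, and whether counting used strand is not given in the sources used here. The partners Gm11365 of E2f3, 1700020G17Rik of E2f7 and Gm28924 of Tfdp2 had 0 counts, and Gm2788, which overlaps E2f8 by 3639 bases, had 21 and 43 counts. The partner of E2f5, 1810022K09Rik, was far more abundant, with 150 TPM in replicate 1 and 164 TPM in replicate 2, but shares 26 bases with it. Those bases cannot be assigned to either gene without strand. On the same strand as Tfdp2, Gm37195 had 16 and 40 counts.

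RNAs for proteins that act with the E2Fs were detected too. All 3 pocket protein genes were at 1 TPM or more in both libraries, against 45.6% of protein-coding genes. All were higher in replicate 2, in TPM and in CPM. By TPM, so were 54.6% of protein-coding genes averaging 1 TPM or more. Rbl1, encoding p107, had 28.0 TPM in replicate 1 and 36.5 TPM in replicate 2. Rbl2, encoding p130, had 12.0 TPM in replicate 1 and 26.0 TPM in replicate 2, over 2-fold apart in TPM, but from 1648 and 2042 counts, with a log2 ratio of −0.49 in CPM. Rb1, encoding the retinoblastoma protein, which binds the activators, had 12.2 TPM in replicate 1 and 16.7 TPM in replicate 2. By mean the order was Rbl1 (32.3 ± 6.05 TPM), Rbl2 (19.0 ± 9.93 TPM) and Rb1 (14.4 ± 3.24 TPM; SD, n = 2 each). Rb1 and Rbl2 were not apart in both libraries.

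The MuvB core joins E2F4, DP1 and p130 in the DREAM complex in resting cells and Mybl2 or Foxm1 in cycling cells. All 7 genes of this list were at 1 TPM or more in both libraries, against 45.6% of protein-coding genes. In TPM 6 were higher in replicate 1, but in CPM 3 were, namely Lin37, Lin9 and Foxm1. Rbbp4, a histone chaperone shared with other complexes, had 104 TPM in replicate 1 and 77.0 TPM in replicate 2. Among the subunits specific to MuvB, Lin37 had 46.3 TPM in replicate 1 and 21.9 TPM in replicate 2, from 475 and 176 counts, and was over 2-fold apart in TPM and in CPM. Lin54, its DNA-binding subunit, had 13.2 and 12.6 TPM, Lin9 14.5 and 10.2 TPM and Lin52 5.22 and 8.78 TPM in replicates 1 and 2. The mitotic activators Mybl2, with 34.3 TPM in replicate 1 and 29.0 TPM in replicate 2, and Foxm1, with 26.2 and 19.1 TPM, were present beside them.

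All 10 partners of E2F6 in its Polycomb-type complex were at 1 TPM or more in both libraries, against 45.6% of protein-coding genes. In TPM, 2 were higher in replicate 1 and 8 in replicate 2, and in CPM 3 and 7. Over protein-coding genes averaging 1 TPM or more, 45.3% were higher in replicate 1 and 54.6% in replicate 2 by TPM. The highest were Cbx3, a chromatin protein that binds methylated histone H3, with 122 TPM in replicate 1 and 131 TPM in replicate 2, and Max, the DNA-binding partner of Mga, with 41.4 and 39.7 TPM. Mga itself had 34.0 TPM in replicate 1 and 39.0 TPM in replicate 2, and Wdr5 had 29.6 and 37.1 TPM. Of 5 germ cell genes that E2F6 is known to keep silent, 4 had 0 counts in both libraries: Smc1b, Slc25a31, Tuba3a and Tuba3b. Among all protein-coding genes, 9128 of 21474 (42.5%) were also at 0 in both libraries. Tuba3a and Tuba3b are near-identical copies whose reads could be divided. The remaining one, Stag3, a meiotic cohesin subunit, had 9.25 TPM in replicate 1 and 5.61 TPM in replicate 2. Its leading transcript by TPM was Stag3-202, a 591-base form annotated for nonsense-mediated decay, with 66.6% and 54.2% of the TPM from 78.0 and 34.6 counts. Most Stag3 counts fell on retained-intron forms: Stag3-203 had 107 and 0 counts and Stag3-206 had 78.2 and 185 in replicates 1 and 2. Of the coding forms, Stag3-201 had 0 and 42.4 counts and Stag3-209 had 58.7 and 0.

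Every gene of the G1/S target list, 31 of 31, was at 1 TPM or more in both libraries, against 45.6% of protein-coding genes. Their means ranged from 9.38 to 304 TPM. Their median was 38.8 TPM, above 91.0% of protein-coding genes, beside the members' 13.8 TPM. The top 4 by mean were the polymerase clamp gene Pcna and the helicase genes Mcm3, Mcm6 and Mcm7. Mcm3, whose window is printed above, had 272 TPM in replicate 1 and 240 TPM in replicate 2, and Mcm6 had 181 and 186 TPM. The Pcna window held none of the words, and Pcna had 308 TPM in replicate 1 and 301 TPM in replicate 2. No gene of the list differed over 2-fold between libraries, and the list sums were 2015 TPM (replicate 1) and 2062 TPM (replicate 2).

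The kinases that release E2F from the pocket proteins were abundant. Cdk4 had 383 TPM in replicate 1 and 346 TPM in replicate 2, and Cdk6 had 122 and 119 TPM. Of their cyclin partners, Ccnd3 had 47.7 TPM in replicate 1 and 61.6 TPM in replicate 2, and Cdk2, the kinase of cyclin E, had 39.2 and 51.3 TPM. All 8 genes of G1 cyclins and kinases were at 1 TPM or more in both libraries. Among the 7 cell death genes known as E2F1 targets, 4 were at that level, against 9782 of 21474 protein-coding genes (45.6%). Apaf1, the apoptosome scaffold, had 30.2 TPM in replicate 1 and 41.9 TPM in replicate 2, and Bcl2l11, which encodes the death-promoting protein BIM, had 6.86 and 6.31 TPM. Trp73, a p53 relative, had 0 counts in both libraries.

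**Figure D4:**
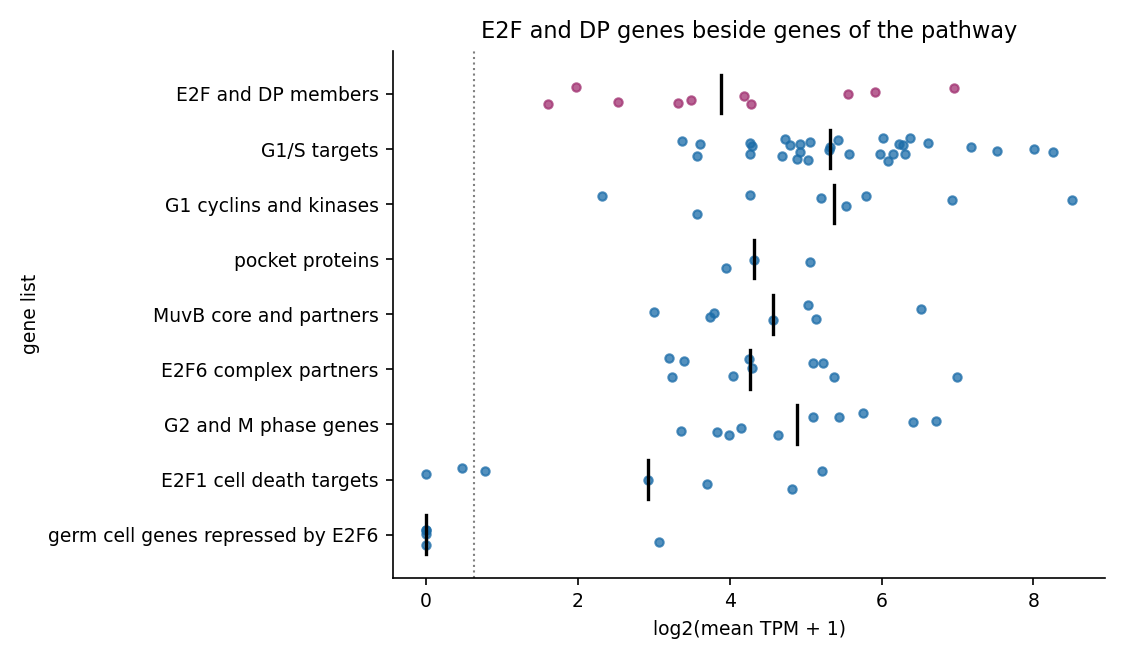
Each point is a gene, placed by log2(mean TPM + 1) of the 2 libraries, with one row for the E2F and DP members and one for each pathway list; black lines mark list medians and the dotted line the median of all protein-coding genes. The 31 G1/S targets lie between 9.38 and 304 TPM, and 4 of the 5 germ cell genes lie at 0.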

How the data were processed

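Gene and transcript tables of the 2 libraries were used as deposited. Expected counts, which can be fractional, are the authors' deposited estimates of reads per gene. Deposited TPM is the count over effective length, scaled to one total for a library, and deposited FPKM served as an alternative to it. Transcript shares are percent of a gene's TPM, as the authors deposited them. The TPM interval bounds and the posterior SD of the count are the authors' deposited signal columns; the confidence level behind them is not stated in the files. Values rest on mm10 and annotation M4, per the files deposited with each library. The aligner, the quantification tool and the use of strand were not given in the sources used here.

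Symbols and coordinates came from GENCODE M21 (GRCm38) by Ensembl identifier without version, and promoter windows from RefSeq GRCm38.p6. Of the 40 transcript rows of the members, all 40 matched M21. Levels are TPM, with the mean and SD over n = 2; ratios are log2(TPM + 1), replicate 1 over replicate 2, for genes averaging 1 TPM or more. Spread over abundance came from edgeR 4.0.16 with TMM scaling and an intercept on rounded expected counts, for Ensembl rows with 10 counts in at least 1 library; DESeq2 1.42.0 size factors were an alternative. The scalings and the trend were tested on simulated data with the same spread for all genes. There the trend was checked only above a level that E2f5 did not reach. The difference as a multiple of the spread was not itself tested. No p-value was computed because there is 1 group.

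The members and gene lists were chosen with earlier results of these data known. Genes named were all members, every pocket protein and MuvB gene, the 4 of highest mean in each other list, members of the lists at 0 counts, and the 3 genes nearest in level to the highest and lowest E2F gene; genes that overlap a member were named after their values were seen. Some genes of the lists are not reported here by name. A gene could be in 2 lists (Rbl1, Mybl2, Ccne1, Ccne2). Python 3.11.15, R 4.3.3, numpy 2.4.6, pandas 2.3.3 and matplotlib 3.10.9 were used. Alternatives were FPKM, posterior mean TPM, CPM, protein-coding transcripts alone, other TPM minimums and pseudocounts, other scalings and leaving out each replicate.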

Additional observations from a re-analysis of the deposited data

How the results depend on the processing

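Of 52 alternative values of 9 summary results, 8 moved by more than 1 SD of the replicates, 1.5 times for a count or 0.1 for the median log2 ratio. In CPM, not divided by length, the activators held 24.4%, the repressors 26.4% and the atypical repressors 39.9% of the E2F sum, the log2 DP to E2F1 to E2F6 ratio was −0.15 and the log2 Tfdp1 to Tfdp2 ratio 2.24, so that the DP to E2F sign, the order of repressors and atypical repressors, and the order of E2f4 and E2f8 turned round; over protein-coding transcripts alone the atypical repressors held 30.2%. The turned DP to E2F sign was slight in replicate 2, where the CPM sums were nearly equal. The median log2 ratio of the members between libraries was −0.0992 with TMM and −0.0919 with DESeq2 size factors. Leaving out 1 replicate gave 17.8% to 21.5% for activators, 36.5% to 39.7% for repressors and 31.2% to 31.7% for atypical repressors, 0.13 to 0.38 for the DP to E2F ratio and 3.51 to 4.19 for Tfdp1 to Tfdp2, while 10 of 10 members and 31 of 31 G1/S targets stayed at 1 TPM or more; the median ratio between libraries needs both replicates. At 5 TPM, 7 members passed, and at 10 TPM, 29 G1/S targets; the leading transcript held 50% or more in both libraries for 8 members. With 2 replicates, leaving one out always stays within 1 SD and shows nothing of stability. FPKM is proportional to TPM within a library, so shares and ratios from FPKM could differ only by rounding. The number of alternatives that did not move therefore includes some that could not move. Among genes at 1 TPM or more, all 10 members had lower percentiles than among all protein-coding genes, such as 60.7 against 81.2 for E2f1. By posterior mean, E2f6 had 16.6 TPM. The 20 alternative replicate ratios, on CPM and protein-coding transcripts, and the CPM values of the lists and of Tfdp1 over Tfdp2 were chosen after seeing the data; 8 of the 20 moved by 0.1 or more. No paired analysis was possible because there is 1 group. With 2 pools of 100 cells the SDs are rough, and E2f5, at 68 and 111 counts, has the fewest counts.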
